A study of Mus musculus with 8 samples.

Results

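The acid lipases are a family of enzymes that split fatty acid esters, and in the mouse several of their genes lie side by side on chromosome 19. The members described here are *Lipn*, *Lipa* and *Lipf*, taken as every probe whose deposited symbol was *Lipn*, *Lipa*, *Lip1* or *Lipf*. This gave 4 of the 45281 probes, or 3 of 30789 gene symbols, as the 2 probes under the older symbol *Lip1* match the RefSeq transcript of *Lipa*. *Lipn* is 1 of the genes that the study picked on these arrays as higher after loading with acetylated LDL (Ac-LDL), and *Lipa* was set beside it as a relative with bright probes. The Ac-LDL contrast of the members is therefore a description and is given without P values.

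*Lipa* encodes lysosomal acid lipase, which hydrolyses the cholesteryl esters and triglycerides that reach the lysosome inside lipoproteins. The free cholesterol then leaves the lysosome through the carriers *Npc2* and *Npc1* and can be esterified again by *Soat1* in the endoplasmic reticulum, a cycle that is central to macrophage foam cells. *Lipf* encodes gastric lipase, a secreted enzyme of dietary fat digestion. *Lipn* is a less studied relative, known mainly from the differentiating epidermis together with *Lipk* and *Lipm*.

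The 8 samples were thioglycollate-elicited peritoneal macrophages, that is, cells recruited to the peritoneum with a sterile irritant, from C57/BL6 mice aged 8 weeks. In 4 samples the cells were incubated with Ac-LDL at 120 μg/ml for 24 h, and 4 control samples were mock treated for the same time. The labels number the samples of each group as biological replicates 1 to 4 and do not say whether animals were pooled. For the study's peritoneal macrophages in general, the methods describe removal of non-adherent cells followed by culture in medium conditioned by L-929 cells, so that both groups are cultured, adherent cells. Labelled cRNA, made from what the labels call total RNA and the study's methods call purified mRNA, was hybridized to Illumina bead chips. On these chips many beads carry the same probe and their mean intensity is reported. Replicates 1 and 2 of both groups were on 1 slide (slide 1) and replicates 3 and 4 on another (slide 2).

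Between 36.8% and 38.5% of the probes were detected on each array, detection meaning a p-value against the negative controls no higher than 0.05. Of 10 macrophage genes, 8 were tested, among them *Cd68*, *Lyz2*, *Csf1r* and *Adgre1* with detection on all 8 arrays, while *Msr1* and *Marco* were detected on fewer than 4. The fibroblast genes *Col1a1* and *Dcn* and the mesothelial gene *Upk3b* were also detected on all 8 arrays, and 0 of 6 mast cell genes were detected on any. The summed level of the 6 fibroblast genes on the linear normalized scale was 10550 to 14520 on the control arrays and 11000 to 13510 on the Ac-LDL arrays. This sum mostly reflects *Dcn*, at a mean log2 intensity of 13.21 on the control arrays, against 8.49 to 10.04 for the others. Gene by gene, 2 of the 6 fibroblast genes were higher with Ac-LDL and 4 lower. The part of these cells in the values below was not tested, and in such bulk samples fewer cells of a type and less RNA per cell cannot be told apart.

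The probes are shown first, as each gene was read through very little sequence. *Lipn* was represented by a single probe of 50 bases that starts at base 1237 of its RefSeq transcript, and *Lipf* by a single probe that starts at base 1145. The deposited annotation places the *Lipf* probe on the plus strand of chromosome 19 from 34042602 to 34042651 and gives no coordinates for the others. The genome build behind this position is not given in the sources used here. The 2 *Lipa* probes start at bases 2230 and 2215 of the same transcript and share 35 of their 50 bases, so that they are close to a repeat of 1 measurement. Only the 15 bases by which each differs from the other are given for them. All are written 5′ to 3′ as deposited, with no part singled out by capitals.
Lipn probe: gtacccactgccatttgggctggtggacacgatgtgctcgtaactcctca
Lipf probe: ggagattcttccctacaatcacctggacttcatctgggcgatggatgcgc
Lipa brighter probe, end not shared: tttcatcagacctca
Lipa dimmer probe, start not shared: gaaatccagtgtaat

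The level of *Lipn* was above that of all 4 controls on each of the 4 treated arrays, with a mean difference of 1.77-fold. The deposited signal of its probe (ILMN_2944988) was 69.2, 67.97, 90.78 and 86.49 on control arrays 1 to 4. On Ac-LDL arrays 1 to 4 it was 115.0, 107.6, 115.3 and 106.6. The Ac-LDL arrays thus lay close together, whereas the control arrays of slide 1 were dimmer than those of slide 2.

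After background correction and quantile normalization, the log2 intensity of *Lipn* was 5.37, 5.64, 5.92 and 5.79 on control arrays 1 to 4, with a mean of 5.68 ± 0.24 (SD, n = 4). On the Ac-LDL arrays it was 6.69, 6.48, 6.42 and 6.42, with a mean of 6.50 ± 0.13 (SD, n = 4). The lowest Ac-LDL array stood above the highest control array, and the log2 fold change was 0.82 (standard error 0.13 from the limma fit). All Ac-LDL arrays were above all control arrays for 2.11% of the 17122 probes tested. By size of the increase from the control to the Ac-LDL mean, the *Lipn* probe ranked 9 among them. This place is a description of a gene picked on these arrays and holds for this background correction, as ranks under others were not computed. The probe was detected on all 8 arrays, with a detection p-value of 0.00321 on control array 1, 0.00107 on control array 2 and 0 on the others.

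**Figure D1:**
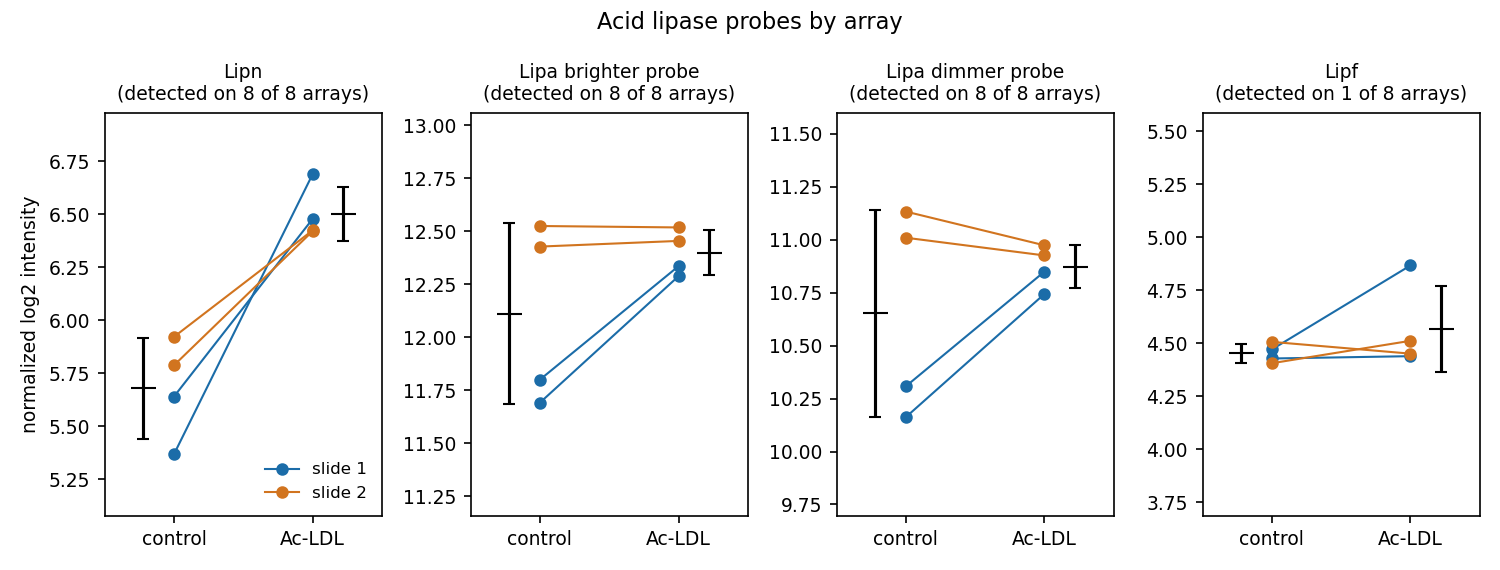
Normalized log2 intensity of the 4 member probes on each array, with lines joining control and Ac-LDL arrays of the same replicate number, coloured by slide, and the mean ± SD of 4 arrays in black. Every panel spans the same range of log2 units; *Lipn* separates the groups (5.37 to 5.92 against 6.42 to 6.69), whereas both *Lipa* probes overlap.

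*Lipn* was a dim probe, and the size of its change depends on how the background is handled. Detected probes began at a signal of 48.4 to 53.8, depending on the array, and undetected probes had a median signal of 38.0 to 40.8. The bead standard error of *Lipn* was between 2.69 and 5.45 in units of signal, at 26 to 43 beads per array. Taken on the log2 scale of the uncorrected signal, this is 0.057 to 0.0942, an error that covers the beads of an array and not the spread between samples. With an offset of 50 in place of 16 in the background correction, the log2 fold change was 0.55, or 1.46-fold. It was 0.60, or 1.52-fold, without background correction, and the groups did not overlap in either setting.

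**Figure D2:**
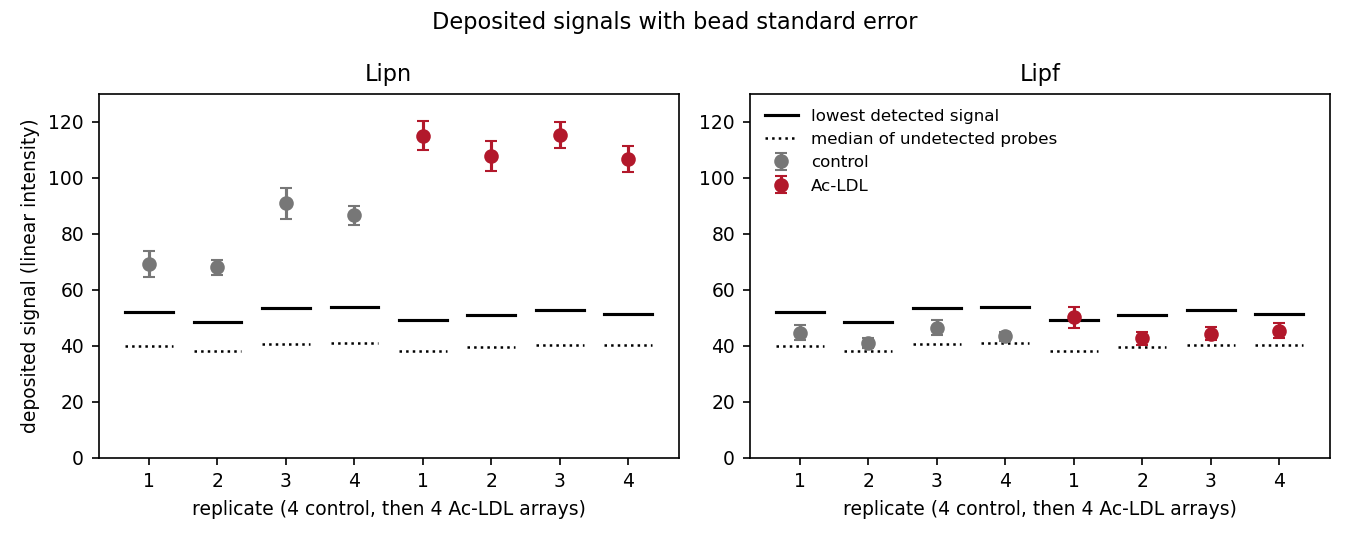
Deposited linear signals of the *Lipn* and *Lipf* probes on each array, with error bars of 1 bead standard error, the lowest signal of a detected probe (solid line) and the median of undetected probes (dotted line) on that array. *Lipn* lay above the solid line on all 8 arrays, and *Lipf* on Ac-LDL array 1 alone.

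*Lipa*, the lysosomal enzyme, was higher with Ac-LDL on slide 1 but hardly differed on slide 2. The signal of its brighter probe (ILMN_1254191) was 3790, 3259, 5798 and 6564 on control arrays 1 to 4 and 4474, 4947, 5523 and 5649 on Ac-LDL arrays 1 to 4. On slide 1 the Ac-LDL arrays were brighter than the control arrays, and on slide 2 they were dimmer. The normalized log2 intensity was 11.69, 11.80, 12.43 and 12.53 on the control arrays, with a mean of 12.11 ± 0.43 (SD, n = 4). It was 12.29, 12.34, 12.45 and 12.52 on the Ac-LDL arrays, with a mean of 12.40 ± 0.11 (SD, n = 4). The groups overlapped, and the log2 fold change was 0.29 (standard error 0.19 from the limma fit), or 1.22-fold. Within slide 1 it was 0.57 and within slide 2 it was 0.01. Most of the spread among the controls was between the slides, as the control mean was 0.73 higher on slide 2 and the Ac-LDL mean 0.17 higher.

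The dimmer *Lipa* probe (ILMN_2649291) showed the same split by slide. Its normalized log2 intensity was 10.16, 10.31, 11.01 and 11.13 on the control arrays and 10.74, 10.85, 10.93 and 10.97 on the Ac-LDL arrays. The change was about as large as its error, at 0.22 on the log2 scale (standard error 0.21 from the limma fit), with 0.56 within slide 1 and -0.12 within slide 2. Over the 8 arrays the 2 probes had a correlation r of 0.99.

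*Lipf*, the gastric enzyme, was detected on 1 of 8 arrays. Its probe (ILMN_2863532) had signals of 44.7, 41.02, 46.46 and 43.33 on the control arrays and 50.19, 42.64, 44.32 and 45.42 on the Ac-LDL arrays. Its detection p-value was 0.0406 on Ac-LDL array 1 and between 0.162 and 0.309 on the other 7. The probe was not well above background in either group, so that it was not tested and no fold change is given.

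Set against *Lipa*, the change of *Lipn* was the larger within every replicate number. The *Lipn* change from control to Ac-LDL was 1.32, 0.84, 0.50 and 0.63 on the log2 scale for replicates 1 to 4. The change of the brighter *Lipa* probe was 0.60, 0.54, 0.03 and -0.01. Both genes had their larger changes on slide 1.

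The *Lipn* change exceeded the *Lipa* change by 0.72, 0.30, 0.48 and 0.64 in replicates 1 to 4, with a mean of 0.54 ± 0.19 (SD, n = 4). This difference between the changes was 0.51 within slide 1 and 0.56 within slide 2. Against the dimmer *Lipa* probe it was 0.60 ± 0.22 (SD, n = 4). It was 0.31 without background correction and 0.26 with an offset of 50, which moved the dim *Lipn* probe and left *Lipa* at 0.29. The intensities of the probes themselves are not compared, since they depend on the probe as well as on the transcript.

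**Figure D3:**
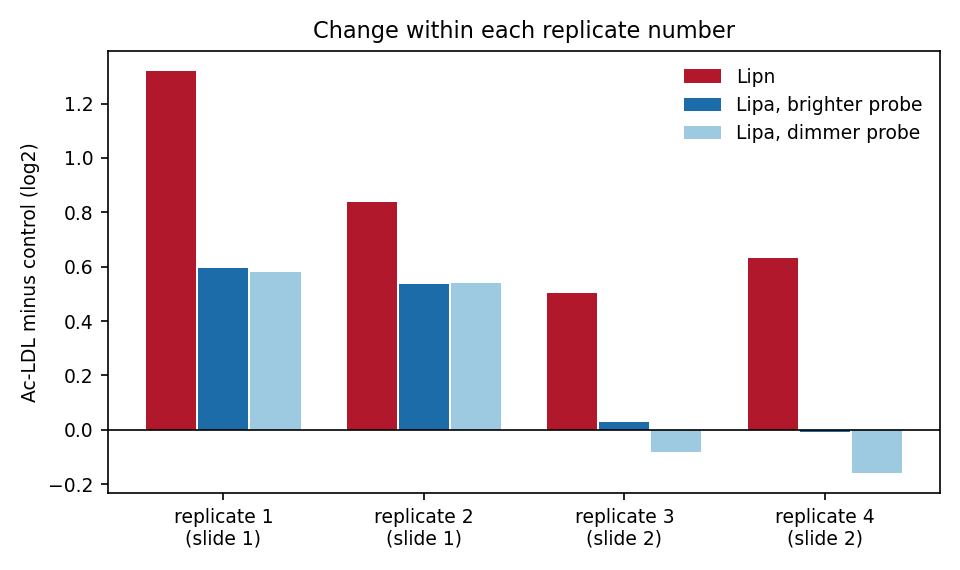
Difference between the Ac-LDL and the control array of the same replicate number on the normalized log2 scale for *Lipn* and both *Lipa* probes. The *Lipn* bars reach from 0.50 to 1.32, and the *Lipa* bars of slide 2 lie between -0.16 and 0.03.

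The slide dependence was also examined as a difference in the log2 fold change, slide 2 minus slide 1. It was -0.51 for *Lipn* (standard error 0.19), -0.56 for the brighter *Lipa* probe (standard error 0.15) and -0.68 for the dimmer one (standard error 0.16). None of these passed limma's interaction test after adjustment over all probes (adjusted p = 0.549, 0.483 and 0.442). The test called 0 of the 17122 probes, or 0%, and rests on 2 arrays per group and slide. At an unadjusted p under 0.05 it had 1435 of these probes, more than the 891 of the comparison of all Ac-LDL with all control arrays.

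In the comparison of all Ac-LDL with all control arrays, the limma test called 7 of 17122 probes at a Benjamini-Hochberg adjusted p under 0.05, or 0.0409%. At an unadjusted p under 0.05 there were 891, or 5.20%, the share beside which the unadjusted counts of the gene lists below stand. Of the 4 member probes, 3 could be tested and 0 were called. With the replicate number as a block, 76 probes or 0.444% were called, and with the slide as a block 55 or 0.321%. The *Lipn* probe was the 1 member among them in both fits. As *Lipn* was chosen on this contrast, nothing is read from these counts.

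The other acid lipase genes were mostly out of reach of the array. *Lipk*, a direct neighbour of *Lipn* and also known from the epidermis, had 3 probes with signals of 31.8 to 46.4 and was detected on 0 of 8 arrays. *Lipo3*, a family member further along the cluster, was detected on all 8 arrays by its 1 probe, which the deposited annotation calls AI747699. Its normalized log2 intensity was 6.97, 6.89, 7.16 and 7.16 on the control arrays and 7.20, 7.13, 6.98 and 6.88 on the Ac-LDL arrays. The groups overlapped, and limma gave a log2 fold change of 0.00 with a standard error of 0.11 (adjusted p = 1.00). It was 0.23 within slide 1 and -0.23 within slide 2. *Lipm*, *Lipo1*, *Lipo2*, *Lipo4* and *Lipo5* matched no probe and were not analysed here.

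In the order of genes in GRCm38.p6, 6 protein-coding genes lie between *Lipn* and *Lipa*. Within 1 Mb of the start of either gene there were 21 protein-coding genes beside *Lipn*, *Lipa* and *Lipf*, of which 9 were tested. Of these 9, 3 were higher and 6 lower in treated cells, and their median log2 fold change was -0.14, beside 0.00 over all probes. None was called by limma, and 2 of the 9 had an unadjusted p under 0.05 (5.20% of all probes), *Ch25h* and *Pank1*. In the fit with the replicate block 1 of the 9 was called, as lower.

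That gene was *Ch25h*, the direct neighbour of *Lipa*, which encodes the enzyme that turns cholesterol into 25-hydroxycholesterol. Its normalized log2 intensity was 8.65, 9.01, 7.70 and 8.35 on the control arrays and 7.91, 8.24, 6.73 and 7.41 on the Ac-LDL arrays. The groups overlapped, but every Ac-LDL array was below the control array of its number, by -0.74 to -0.96. Without a block, limma gave it a log2 fold change of -0.85 with a standard error of 0.34 (adjusted p = 0.887). The adjusted p fell to 0.00895 when the replicate number entered the fit and was 0.110 when the slide did.

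Other genes of the interval, named for their place, had smaller differences. The log2 fold change was 0.01 for *Stambpl1*, a deubiquitinase gene, -0.225 for *Acta2*, which encodes smooth muscle actin, and -0.14 for the death receptor gene *Fas*. On the far side of *Lipa*, the interferon-induced genes *Ifit2* and *Ifit3* had log2 fold changes of -0.01 and -0.31. None of these 5 genes was called with or without a block, although *Acta2*, *Fas* and *Ifit3* were lower on the Ac-LDL array in each of the 4 replicate numbers. The share of all probes that were lower in each replicate number was not computed, so nothing is read from this. *Pank1*, a pantothenate kinase gene further out that was named after its values were seen, had a log2 fold change of -0.51 (limma adjusted p = 0.526). Its Ac-LDL arrays all lay below its control arrays, as they did for 1.68% of all probes.

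**Figure D4:**
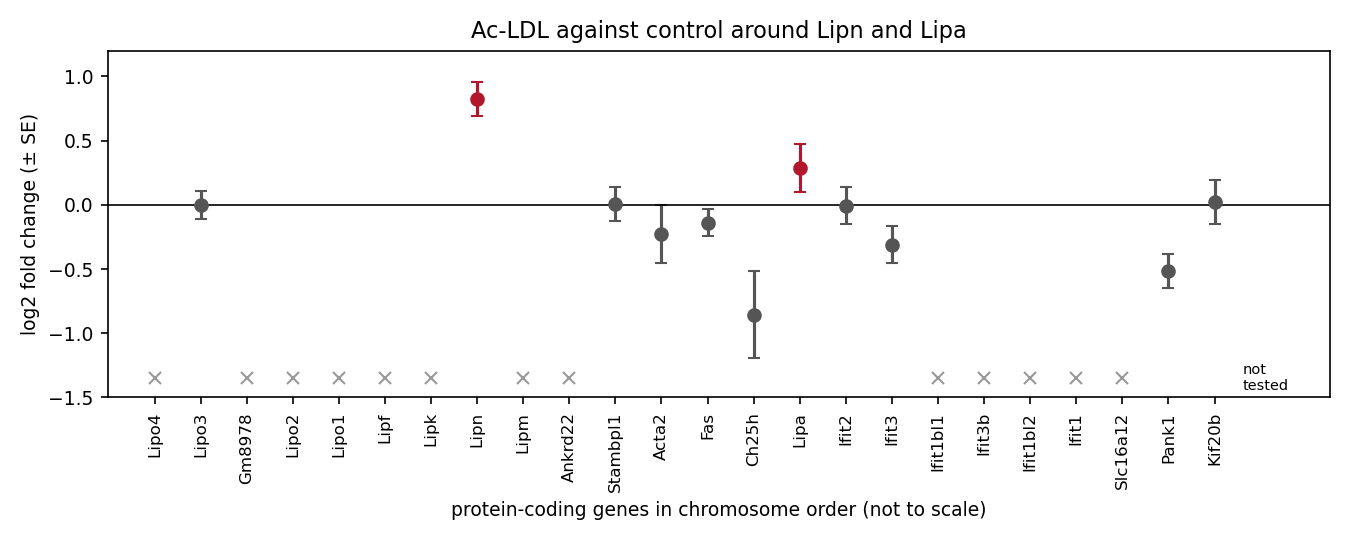
Log2 fold change (Ac-LDL minus control, ± standard error) of the protein-coding genes within 1 Mb of *Lipn* or *Lipa*, in chromosome order and not to scale, with crosses for genes that were not tested. *Lipn* is at 0.82 and *Lipa* at 0.29 (red), whereas the tested genes around them lie between -0.85 and 0.02.

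In a broad list of genes around lysosomal lipid breakdown, *Lipa* left out, the brightest tested probes showed no change that passed the test. Some genes of this list have no direct part in breaking down lipids in the lysosome. Of 30 genes, 28 were tested, 19 were higher and 9 lower, with a median log2 fold change of 0.05 and a range of -0.22 to 0.32. None was called by limma, with or without a block, and 1 of the 28 had an unadjusted p under 0.05 (5.20% of all probes). The cholesterol carriers had log2 fold changes of 0.07 for *Npc1* (standard error 0.09, adjusted p = 0.987) and -0.10 for *Npc2* (standard error 0.17, adjusted p = 0.990). The *Npc1* value is that of the brightest of 3 tested probes, and the others went the other way, at -0.23 and -0.19. The intensity of the brightest *Npc1* probe was 12.44 to 12.63 in control and 12.51 to 12.68 in Ac-LDL-treated cells, so that the groups overlapped.

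The highest value of the list was that of *Pla2g15*, the lysosomal phospholipase, at 0.32 (standard error 0.13, adjusted p = 0.897; named after its values were seen). The brightest probe of *Ctsa*, which encodes the protective protein cathepsin A, changed by 0.08 (adjusted p = 0.994). Of its 4 other probes, 1 changed by 0.96 and was called once the replicate number was taken into account (adjusted p = 0.00869, against 0.526 without a block). The remaining probes changed by 0.02 to 0.13.

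Of 16 genes for neutral lipases and for esterification outside the lysosome, 9 were tested, 5 higher and 4 lower, with a median log2 fold change of 0.04. None was called by limma, with or without a block, and 0 had an unadjusted p under 0.05. *Nceh1*, the neutral cholesteryl ester hydrolase of macrophages, had a mean log2 intensity of 12.42 ± 0.16 (SD, n = 4) without and 12.49 ± 0.05 (SD, n = 4) after Ac-LDL. *Soat1*, which makes cholesteryl esters, stood at a log2 fold change of -0.07 with a standard error of 0.11 (limma adjusted p = 0.989).

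In a list of the lipoprotein lipase family and proteins that partner it, 3 of 11 genes were tested. With or without a block 0 were called (1 at an unadjusted p under 0.05, *Lpl*, beside 5.20% of all probes). *Lpl* itself was at 13.76, 13.86, 14.40 and 14.42 on the control arrays and at 14.55, 14.47, 14.48 and 14.62 on the Ac-LDL arrays. These groups did not overlap, as for 2.11% of all probes in this direction. The difference for *Lpl* was 0.42 on the log2 scale with a standard error of 0.16 (limma adjusted p = 0.854), and the control arrays of slide 1 were again the lowest.

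Of 16 genes for factors that act on lysosomal transcription or its upstream signals, 12 were tested, 4 higher and 8 lower, and 0 were called with or without a block (1 at an unadjusted p under 0.05, beside 5.20% of all probes). Their median log2 fold change was -0.05. The 1 gene was *Klf4*, a zinc finger factor named after its values were seen, at -0.50 (limma adjusted p = 0.294). *Tfeb*, a main activator of lysosomal genes, did not pass the detection filter.

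Because *Lipn* is best known from the epidermis, genes of epidermal differentiation were examined on the same arrays. All 16 had a probe, 11 were detected on 0 of 8 arrays, among them *Krt5*, *Krt1*, *Flg*, *Krtdap* and *Casp14*, and 4 were tested. The 4 tested genes were *Ivl*, *Krt10*, *Krt14* and *Tgm1*, with log2 fold changes of -0.17 to 0.06 and 0 calls with or without a block (0 at an unadjusted p under 0.05). Their summed level on the linear normalized scale was 347.5 to 439.0 on the control arrays and 343.5 to 394.7 on the Ac-LDL arrays. The part of epidermal cells in the *Lipn* values was not tested.

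Among the macrophage genes, *Mertk*, a receptor for the uptake of dying cells, was the 1 gene called with the replicate block, at a log2 fold change of 0.56 (adjusted p = 0.0364), and 0 were called without it (2 at an unadjusted p under 0.05, *Mertk* and, named after its values were seen, the Fc receptor gene *Fcgr1*, beside 5.20% of all probes). The adjusted p of *Mertk* was 0.166 with the slide as a block, and its other probe had a log2 fold change of 0.20. Of the 8 tested macrophage genes, 5 were higher and 3 lower. The lowest was *Cd14*, also named after its values were seen, at -0.48 (limma adjusted p = 0.960). The summed level of the macrophage genes was 35920 to 44390 on the control arrays and 37090 to 43120 on the Ac-LDL arrays. This sum mostly reflects *Lyz2* and *Cd68*, at mean log2 intensities of 14.73 and 13.06 on the control arrays. The other tested macrophage genes were at 6.28 to 10.76 there, so that the sum says little about them. Of the genes of other cells in the cavity, 1 of 6 B cell, 1 of 6 T cell, 2 of 6 neutrophil, 1 of 5 eosinophil, 5 of 7 mesothelial and 6 of 6 fibroblast genes were tested, and limma called 0 of them with or without a block. At an unadjusted p under 0.05 there were 2, beside 5.20% of all probes, *S100a8* of the neutrophil and *Col1a2* of the fibroblast genes, both named after their values were seen.

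**Figure D5:**
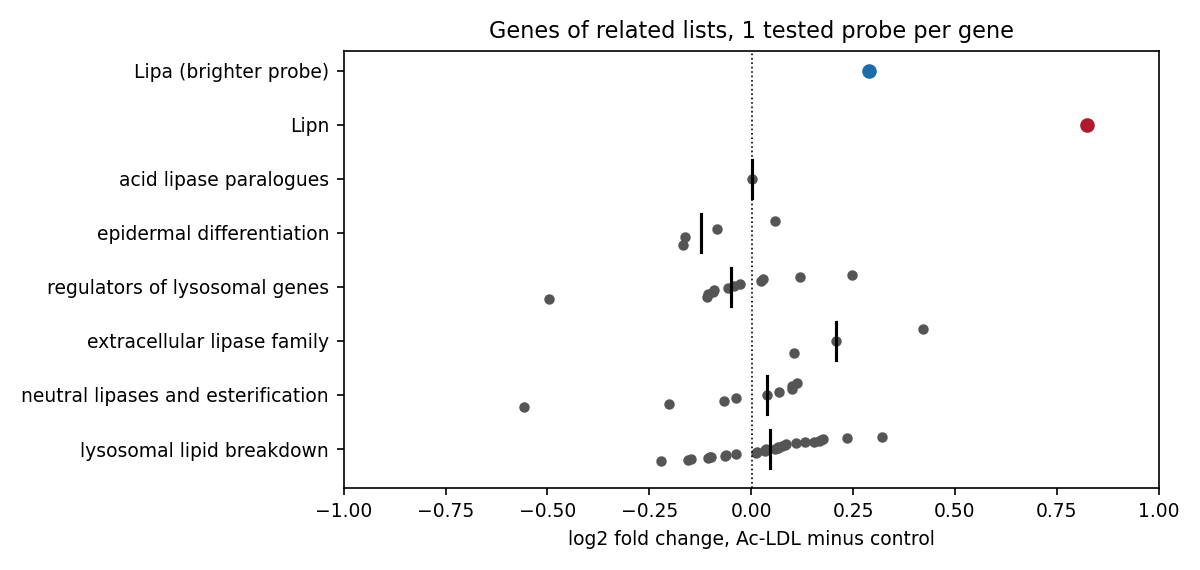
Log2 fold change (Ac-LDL minus control) of the tested genes of each list, 1 probe per gene, with the median of each list as a bar and the median of all probes as a dotted line; *Lipn* (red, 0.82) and the brighter *Lipa* probe (blue, 0.29) have rows of their own. The genes of the lysosomal list, each by its brightest tested probe, lie between -0.22 and 0.32. Dimmer probes are not drawn, among them 1 of *Ctsa* at 0.96 and 1 of *Npc1* at -0.23.

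The probes whose values over the 8 arrays were most like those of *Lipn* belonged to *Fance*, *Etfrf1*, *Gsk3a*, 7420700D11Rik and *Mgrn1*, with a correlation r of 0.96 to 0.98. Their log2 fold changes were small, between 0.15 and 0.25. Since the probes were picked for likeness over the same arrays, any slide pattern they share with *Lipn* was fixed by that choice. Of all other tested probes, 54 or 0.315% had an r above 0.9 with *Lipn*. For the brighter *Lipa* probe the most like probes were those of *Asph*, *Gpr155*, *Itm2b*, *Fam78a* and *Prkcd*, with an r of 0.99 to 1.00. Picked in the same way, these had log2 fold changes of 0.15 to 0.41. For *Lipa*, 509 probes or 2.97% had an r above 0.9. The r between *Lipn* and *Lipa* was 0.65. These values describe 8 arrays that share their slides and their normalization.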

How the data were processed

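RNA of 8 macrophage samples, 4 per group, was read on Illumina Mouse WG-6 bead chips. For each probe the authors deposited the mean bead intensity with its bead standard error on the linear scale, neither background-corrected nor normalized, and the bead number. The deposited detection p-value gives the probability of such a signal among negative control beads. The labels name BeadStudio, and the genome build is not given in the sources used here. The authors' own normalized values were not used here. With R 4.3.3 and limma 3.58.1, intensities were corrected with normexp (neqc, offset 16, negative controls inferred from the detection p-values), quantile normalized and taken to log2. Tested were probes detected (p-value no higher than 0.05) on 4 or more of 8 arrays, 17122 probes of 12423 symbols, by limma's moderated test without a block, as the study's test was unpaired. List genes were read from their brightest tested probe, and 30313 probes were named through RefSeq (GRCm38.p6).

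The members and lists were chosen with earlier results of these data known. Named are all members, list genes called with or without the replicate block, a few fixed genes of cholesterol handling, and the 5 probes most like *Lipn* and *Lipa*. Genes outside this rule were named for their place on the chromosome, as examples of detection, or after their values were seen. Same-numbered control and Ac-LDL arrays had correlated deviations from their group means (r across probes 0.579, 0.479, 0.468 and 0.629). The highest r of control arrays 1 to 4 with an Ac-LDL array of another number was 0.3428, 0.4285, 0.4466 and 0.1884. For replicates 2 and 3 the match by number was thus little closer than the best match with another number. An alternative fit took the replicate number as a block. Other backgrounds, normalizations, filters, tests and left-out arrays were tried, and the fit was tested on simulated data. The number of arrays limits the precision, and the p-values of the fits set a difference against the spread between these samples.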

Additional observations from a re-analysis of the deposited data

Results flagged for a closer look

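The *Lipf* value of Ac-LDL replicate 1 (4.87 on the normalized log2 scale) lay apart from the other 3 Ac-LDL arrays, at 4.44 to 4.51. It is the 1 array on which the probe was detected, with a signal of 50.19 at 35 beads and a bead standard error of 3.79. Such a gap occurred in 1 of 24 groups of 4 arrays examined, and 1.2 would be found by chance.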

How the results depend on the processing

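*Lipn* and *Lipa* were higher with Ac-LDL under every background correction, normalization, block and left-out array tried. When arrays were left out singly or by replicate number, the *Lipn* change was between 0.66 and 0.93, the *Lipa* change between 0.15 (without control replicate 1) and 0.43 (without control replicate 4), and the difference between them between 0.43 and 0.63. That difference was 0.31 without background correction and 0.26 with an offset of 50. Scaling the arrays to one median or leaving out normalization shifted the median of all probes by -0.09 and -0.12 on the log2 scale, with *Lipn* at 0.74 and 0.71 and *Lipa* at 0.17 and 0.14. The number of probes called over the whole array was less stable. It was 76 with the replicate block, 55 with the slide block, 26 with arrays scaled to one median, 30 without normalization, 14 with probes detected on at least 1 array, 0 without a filter (2290 at an unadjusted p under 0.05) and 0 by the methods' t-test (1039 at an unadjusted p under 0.05). With arrays left out it was between 0 and 15. It was 0 without control replicate 4, without Ac-LDL replicate 1, 2 or 3 and without both arrays of any replicate number, 1 without Ac-LDL replicate 4 and 15 without control replicate 2. Near *Lipn* and *Lipa*, 1 gene was called with the replicate block, *Ch25h*, and 0 in each other setting. The lists of paralogues, lysosomal, neutral and extracellular lipase genes, regulators and epidermal genes had 0 calls in each setting run. This holds for the brightest tested probe of each gene, as a dimmer *Ctsa* probe was called with the replicate block. In the settings with 0 calls over the whole array, the lists could have none. No *Lipf* change was computed, as its probe was not tested.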
